A study of Homo sapiens with 6 samples.

Results

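U-2 OS cells, a polyploid line from a human osteosarcoma, were profiled by sequencing of messenger RNA, and the transcripts of the tumour necrosis factor (TNF) ligand and receptor superfamilies were followed. The members were taken by name: protein-coding genes whose symbol begins with TNFSF or TNFRSF, together with TNF, LTA, LTB, LTBR, FAS, FASLG, CD27, CD40, CD40LG, CD70, NGFR, EDA, EDAR and EDA2R. This gave 47 of the 60664 genes in the count table, namely 19 ligands and 28 receptors. The cells were transiently transfected at 30 nM with control siRNA (siControl, 3 replicates) or with siRNA directed against SFPQ (siSFPQ, 3 replicates), and both conditions received the same transfection reagent. SFPQ is a nuclear RNA- and DNA-binding protein of the splicing and transcription machinery and of paraspeckles. The knock-down acts on the whole culture of 1 cell line, and transcripts were measured without the proteins, so that membrane-bound, shed and secreted forms cannot be told apart.

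TNF superfamily ligands are mostly trimeric membrane proteins that can be cleaved from the cell, and they bind receptors with cysteine-rich extracellular repeats. Receptors with a cytoplasmic death domain recruit death domain adaptors, and several of them, such as FAS, can lead to caspase activation, most of the others bind TRAF adaptors directly and lead to NF-kB and MAP kinase signalling, and decoy receptors bind ligand without signalling into the cell. Many members are best known from lymphocytes, whereas osteoprotegerin (TNFRSF11B) and its ligand RANKL (TNFSF11) regulate osteoclast formation in bone.

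The libraries held between 43469321 and 47119203 counts, and 3 counts, used as the floor of detection, stood for 0.0637 to 0.069 CPM (counts scaled to the library total), a limit that covers counting error only. SFPQ had 22338, 23139 and 21753 counts in siControl and 3140, 3863 and 3151 counts in siSFPQ, a log2 fold change of -2.73 (SE 0.0498). Counts of 8 osteosarcoma and mesenchymal markers summed to between 5904 and 6113 CPM in siControl and between 5581 and 5617 CPM in siSFPQ, with IBSP and SP7, 2 markers of osteoblasts, at no more than 5 counts in any library. Within this list VIM rose and COL1A1 and SPARC fell. These genes made up most of the sum, with siControl means of 904 CPM for VIM, 2846 CPM for COL1A1 and 2173 CPM for SPARC. RUNX2 was at 56.4 CPM, ALPL at 3.45 CPM and COL1A2 at 0.813 CPM in siControl. The summed level of 9 leukocyte markers was 1.20 to 1.78 CPM in siControl and 1.80 to 2.62 CPM in siSFPQ. Of the leukocyte markers, 6 were tested, CD3D and ITGAM rose and PTPRC fell, and CD3E, CD2 and CD68 had no more than 3 counts in any library. The summed level of 4 endothelial markers was 4.42 to 5.79 CPM in siControl and 7.03 to 7.64 CPM in siSFPQ, and CDH5 and VWF rose. The part of these marker levels in the changes of immune-type members below was not tested.

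More members rose than fell after SFPQ knock-down. Of the 37 members with at least 10 counts in total, 18 rose, 4 fell and 15 did not pass the test (edgeR quasi-likelihood test, Benjamini-Hochberg adjusted p under 0.05 over 29022 genes). The background was wide, since 22.4% of all tested genes rose and 22.1% fell, against 48.65% and 10.81% of the tested members. The median log2 fold change was 0.35 for the tested members and 0.02 for all tested genes. In RNA from whole cultures, fewer cells of a kind and less RNA per cell cannot be told apart. The range over members ran from -3.29 to 6.68, with both ends set by ligands with few reads. Among genes with a mean of at least 1 CPM, 30.2% rose and 34.4% fell, and of the 23 members at that level 16 rose, 3 fell and 4 did not pass. With a log2 fold change beyond 1.5 in either direction required as well, 4 members were higher (TNFSF15, TNFSF8, TNFRSF8 and TNFRSF19) and 2 were lower (TNFRSF13C and TNFSF14), where 5.54% of all tested genes were higher and 4.77% lower. In 19 tested members every siSFPQ library lay above every siControl library and in 4 every one lay below, against 26.9% and 25.4% of all tested genes.

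**Figure D1:**
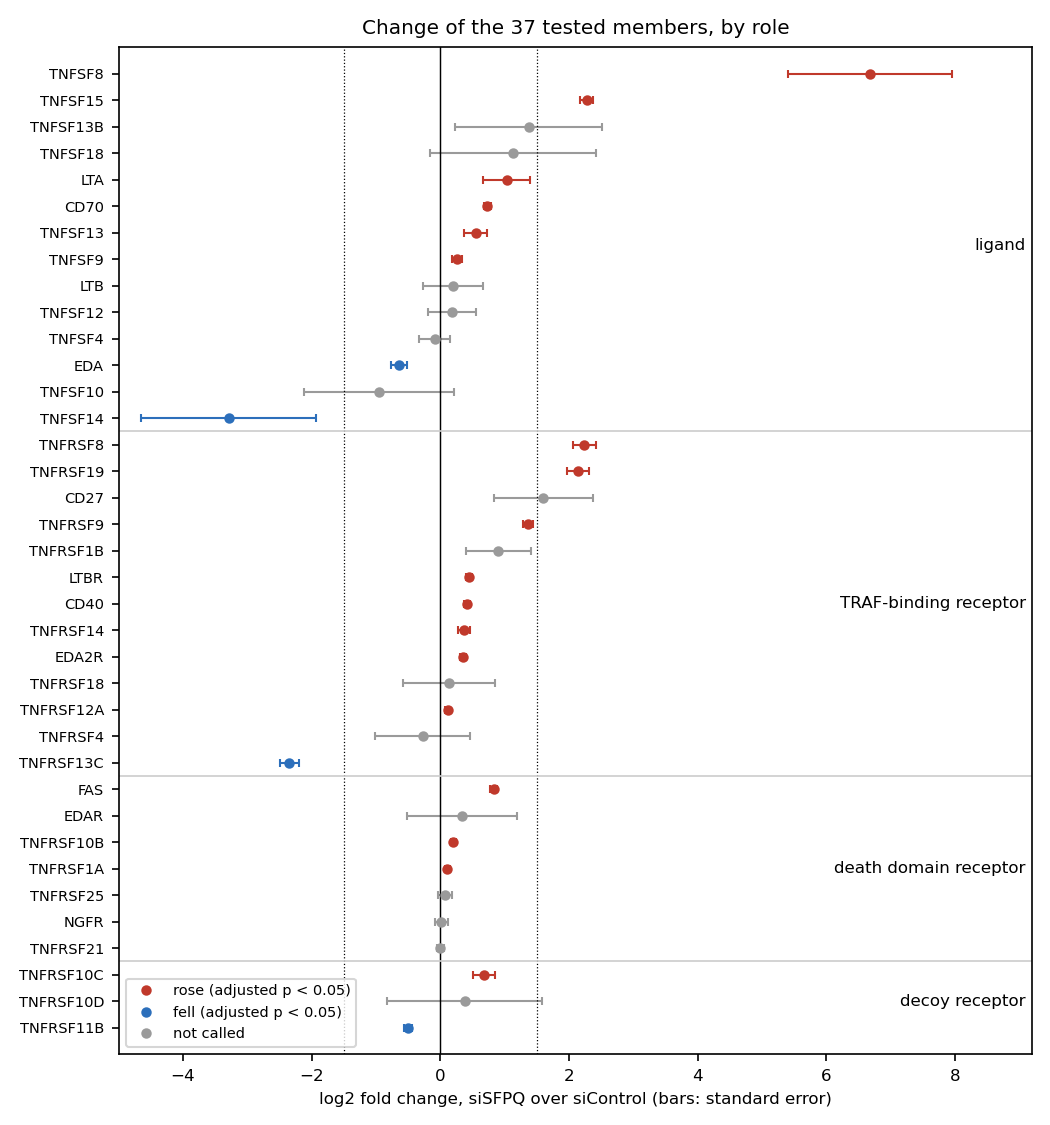
Log2 fold change (x axis, siSFPQ over siControl, bars are the standard error) of the 37 tested members, grouped by role along the y axis; dotted lines mark 1.5 and -1.5. Red points rose, blue points fell and grey points did not pass the adjusted p of 0.05. TNFSF8, whose 3 siControl libraries had no counts, and TNFSF14 have the widest error bars among the called members, and the receptors with the largest called changes are TNFRSF8, TNFRSF19 and TNFRSF13C.

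The upstream sequences of the 4 members with the largest rises among those with a mean of at least 1 CPM are given here, to show what lies before the starts of the genes that changed most: TNFSF15, TNFRSF8, TNFRSF19 and TNFRSF9. Each is the 250 bases before a RefSeq transcript start (GRCh38.p14), read 5′ to 3′ on the strand of the gene, and capitals mark matches to the kappa-B consensus of NF-kB or to the AP-1 motif TGANTCA, both searched on both strands. For TNFRSF9 this is chr1:7940840-7941089 on the minus strand, whose start lies 2326 bases from the 5′ end of the gene in GENCODE. For TNFRSF8 it is chr1:12063053-12063302 on the plus strand, at the 5′ end of the gene itself. For TNFSF15 it is chr9:114792531-114792780 on the minus strand, and this start lies 13509 bases inside the gene, so that it belongs to a shorter transcript. TNFRSF19 has a pair of starts on the plus strand, with windows at chr13:23570162-23570411, 42 bases from the 5′ end of the gene, and at chr13:23579110-23579359, 8990 bases from it.
TNFRSF9: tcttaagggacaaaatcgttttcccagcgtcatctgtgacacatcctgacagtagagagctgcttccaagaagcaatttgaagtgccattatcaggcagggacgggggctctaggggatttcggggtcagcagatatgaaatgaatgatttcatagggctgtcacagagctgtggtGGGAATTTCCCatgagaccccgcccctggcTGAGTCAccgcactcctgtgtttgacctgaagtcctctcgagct
TNFRSF8: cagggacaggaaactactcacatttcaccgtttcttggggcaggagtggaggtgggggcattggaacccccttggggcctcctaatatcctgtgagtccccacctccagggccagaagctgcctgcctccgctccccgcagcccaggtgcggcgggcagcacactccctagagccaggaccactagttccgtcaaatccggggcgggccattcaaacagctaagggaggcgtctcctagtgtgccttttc
TNFSF15: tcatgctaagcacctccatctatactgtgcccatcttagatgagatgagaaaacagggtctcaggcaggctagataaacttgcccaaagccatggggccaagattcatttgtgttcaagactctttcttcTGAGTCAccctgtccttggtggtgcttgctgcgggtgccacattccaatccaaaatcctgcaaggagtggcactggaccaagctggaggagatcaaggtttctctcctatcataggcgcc
TNFRSF19 first start: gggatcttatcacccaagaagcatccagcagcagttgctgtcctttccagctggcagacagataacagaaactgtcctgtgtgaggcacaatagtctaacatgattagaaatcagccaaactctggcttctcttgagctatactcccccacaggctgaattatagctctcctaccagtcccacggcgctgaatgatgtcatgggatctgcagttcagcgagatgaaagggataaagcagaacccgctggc
TNFRSF19 second start: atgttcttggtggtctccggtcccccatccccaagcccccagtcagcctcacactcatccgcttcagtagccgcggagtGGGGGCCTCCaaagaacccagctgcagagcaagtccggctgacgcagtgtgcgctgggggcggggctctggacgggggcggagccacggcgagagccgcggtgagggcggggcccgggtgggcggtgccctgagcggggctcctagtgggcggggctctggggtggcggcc

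The TNFRSF9 window held both motifs, with overlapping kappa-B matches on both strands that began 74 and 73 bases before the start and an AP-1 match that began 44 bases before it. TNFSF15 had an AP-1 match 120 bases before its internal start, and the second TNFRSF19 window had a kappa-B match 171 bases before the start. In TNFRSF8 no match lay in the printed stretch, and an AP-1 match began at base 2 after the start. Windows of 250 bases before and 50 bases after a start were found for 29 of the 47 members. A kappa-B match was present in 10 of these 29 members (34.5%) and in 13.3% of 27305 genes, and among the 12 members that rose and have a window it was present in 6. An AP-1 match was present in 7 of the 29 members (24.1%), in 9.37% of all genes and in 5 of the 12 that rose. The other members with a kappa-B match were TNFRSF25 and LTB, which did not pass, TNFSF14, which fell, and TNFSF11, which had no counts. For AP-1 they were CD27, which did not pass, and TNFSF14. The share among all genes that rose was not computed, and a link between the motifs and the rise was not tested. Both motifs were chosen with the results known, and a match is a match of letters only.

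Among the 14 tested ligands, 6 rose (42.86%, against 22.4% of all tested genes), 2 fell (14.29%, against 22.1%) and 6 did not pass. Their median log2 fold change was 0.40 (0.23 with genes at the floor set to their bound). TNFSF15, the ligand of death receptor TNFRSF25, had 113, 148 and 125 counts in siControl and 577, 638 and 662 counts in siSFPQ. Normalized counts were 129 ± 17.7 (SD, n = 3, as for all values given with ±) and 624 ± 28.9, a log2 fold change of 2.28 (SE 0.106, adjusted p = 1.01e-18). The lowest siSFPQ library was therefore far above the highest siControl library. TNFSF8, the ligand of CD30, had 0 counts in all 3 siControl libraries and 14, 9 and 15 counts in siSFPQ. This is at least 4.22-fold higher against the floor of 3 counts per library (adjusted p = 5.83e-05), and the fitted log2 fold change of 6.68 depends on the prior count. The 2 genes are neighbours on chromosome 9, TNFSF15 at 114784652 to 114806039 and TNFSF8 at 114893343 to 114930595, both on the minus strand.

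CD70, the ligand of the T and B cell receptor CD27, was the ligand with the most reads. It had 1332, 1225 and 1330 counts in siControl and 2059, 2114 and 2315 counts in siSFPQ, with no overlap. The normalized means were 1298 ± 63.0 and 2158 ± 112, a log2 fold change of 0.73 (SE 0.0538, adjusted p = 1.63e-13). TNFSF9, the ligand of CD137, rose by less, from 561, 565 and 585 counts to 683, 652 and 716 counts (log2 fold change 0.26, SE 0.0760, adjusted p = 0.00575), and here too the conditions were separate. TNFSF13, a ligand that acts on B cells and plasma cells, had 60, 84 and 92 counts in siControl and 125, 106 and 115 counts in siSFPQ. Its log2 fold change was 0.55 (SE 0.179, adjusted p = 0.0121), and the call was lost without siControl replicate 1 (adjusted p = 0.0687) or without siSFPQ replicate 1 (adjusted p = 0.0774). Of its exon length, 55.5% is shared on the same strand with the readthrough gene TNFSF12-TNFSF13, so that reads on this stretch could not be assigned to it alone. LTA, lymphotoxin alpha, was below 1 CPM and is named because it completes the risen ligands, with 22, 20 and 7 counts in siControl and 29, 36 and 36 counts in siSFPQ. Its log2 fold change of 1.03 (SE 0.370, adjusted p = 0.0226) rested in part on siControl replicate 3, the lowest library, without which it was 0.67 (adjusted p = 0.132), and DESeq2 gave an adjusted p of 0.0553. Without siSFPQ replicate 2 or siSFPQ replicate 3 the adjusted p was 0.0821 and 0.0784.

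The ligand that fell with ample counts was EDA, ectodysplasin, which directs the formation of hair, teeth and sweat glands. It had 339, 240 and 296 counts in siControl and 208, 173 and 180 counts in siSFPQ, with every siSFPQ library below every siControl library. The log2 fold change was -0.64 (SE 0.126, adjusted p = 7.00e-05), and 19% of its exon length is shared with genes on either strand. TNFSF14, also called LIGHT and a ligand of LTBR and TNFRSF14, had 7, 4 and 2 counts in siControl and 0, 1 and 0 counts in siSFPQ. It was at least 1.45-fold lower against the floor, with an adjusted p of 0.0486, and the call was lost in 7 of the 11 alternatives that tested it, where the adjusted p reached 0.155.

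The other tested ligands had few reads and did not pass the test. TNFSF4, the ligand of OX40, had 51, 54 and 47 counts in siControl and 36, 61 and 47 counts in siSFPQ, so that the conditions overlapped (log2 fold change -0.09, SE 0.241, adjusted p = 0.816). TNFSF12, LTB, TNFSF10, TNFSF18 and TNFSF13B had no more than 30 counts in any library. TNF itself, the founding ligand, had 1, 4 and 0 counts in siControl and 1, 2 and 0 counts in siSFPQ, too few to test. FASLG had 0 counts in siControl and 1, 1 and 0 counts in siSFPQ, and CD40LG, TNFSF11 and the readthrough gene TNFSF12-TNFSF13 had 0 counts in all libraries. For TNFSF12-TNFSF13 the whole exon length is shared with other genes, so a count of 0 does not show that the transcript was missing.

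**Figure D2:**
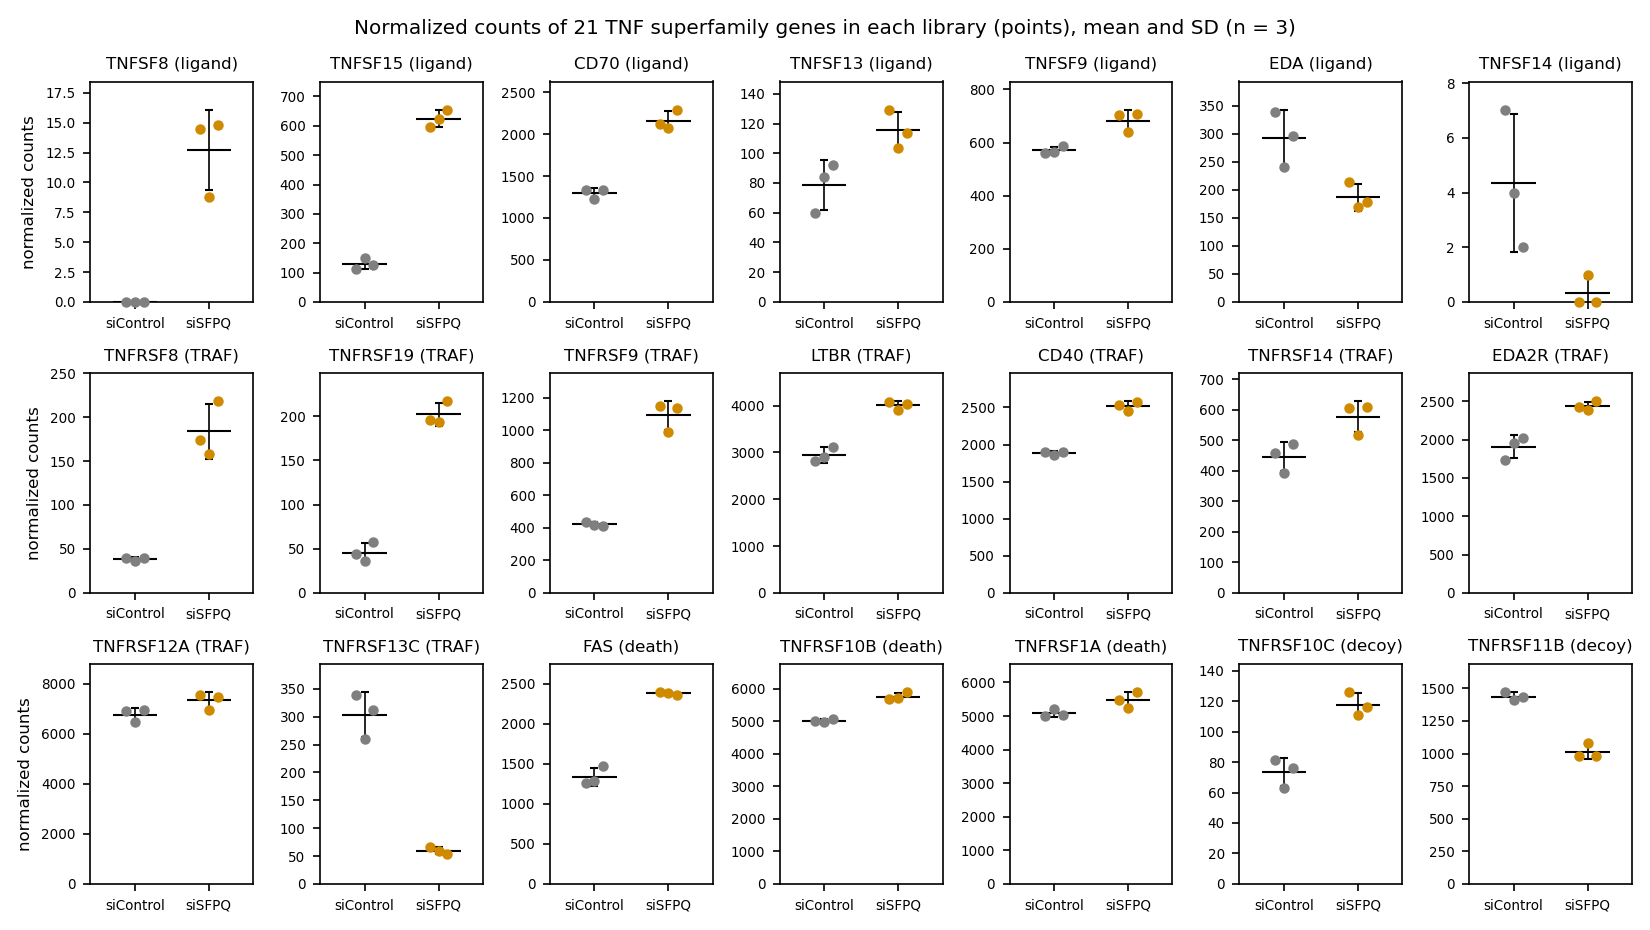
Normalized counts (y axis, starting at 0) of 21 members in each siControl and siSFPQ library, with 1 panel per gene and its role in brackets; points are libraries, horizontal lines are means and bars are the SD (n = 3). Shown are the called members that reach a mean of 1 CPM and those beyond a log2 fold change of 1.5. In each of the 21 panels the points of siControl and siSFPQ are separate, and the smallest relative gaps are seen for TNFRSF12A and TNFRSF1A.

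The TRAF-binding receptors contained the largest receptor changes, with 8 of 13 tested genes risen (61.54%, against 22.4% of all tested genes), 1 fallen and 4 that did not pass (median log2 fold change 0.42). TNFRSF8, known as CD30 and a marker of activated lymphocytes, had 40, 36 and 40 counts in siControl and 169, 162 and 221 counts in siSFPQ. The normalized mean went from 38.7 ± 2.36 to 184 ± 30.8, a log2 fold change of 2.24 (SE 0.179, adjusted p = 1.46e-12). TNFRSF19, known as TROY and expressed in the developing nervous system and in epithelial stem cells, had 44, 36 and 57 counts in siControl and 190, 198 and 220 counts in siSFPQ. Its log2 fold change was 2.14 (SE 0.170, adjusted p = 1.25e-12). Both receptors were thus low in siControl and more than 4 times higher in siSFPQ, as the fold changes of 4.73 for TNFRSF8 and 4.41 for TNFRSF19 show. TNFRSF9, the costimulatory receptor CD137, started from a higher level, with 437, 418 and 413 counts in siControl and 1113, 1014 and 1153 counts in siSFPQ. Its normalized mean rose from 423 ± 12.7 to 1092 ± 87.0, a log2 fold change of 1.37 (SE 0.0758, adjusted p = 1.09e-16), below the fold threshold of 1.5.

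A second set of TRAF-binding receptors rose by less and from higher levels. LTBR, the lymphotoxin beta receptor that acts through alternative NF-kB signalling, had 2802, 2902 and 3114 counts in siControl and 3955, 3998 and 4082 counts in siSFPQ (log2 fold change 0.44, SE 0.0437, adjusted p = 2.04e-10). CD40, the receptor for T cell help on B cells and dendritic cells, had 1895, 1858 and 1897 counts in siControl and 2462, 2503 and 2607 counts in siSFPQ (log2 fold change 0.42, SE 0.0462, adjusted p = 2.67e-09). For both receptors the spread within a condition was much smaller than the step between the conditions. TNFRSF14, also called HVEM, had 459, 393 and 485 counts in siControl and 587, 530 and 616 counts in siSFPQ (log2 fold change 0.37, SE 0.0898, adjusted p = 0.000906). EDA2R, a receptor of an ectodysplasin isoform, had 1736, 1957 and 2021 counts in siControl and 2356, 2433 and 2536 counts in siSFPQ (log2 fold change 0.35, SE 0.0517, adjusted p = 6.74e-07). These 4 receptors shared log2 fold changes between 0.35 and 0.44 and had no overlap between conditions. TNFRSF12A, the receptor of TNFSF12, had 6885, 6467 and 6927 counts in siControl and 7331, 7109 and 7588 counts in siSFPQ. Its rise was small (log2 fold change 0.12, SE 0.0405, adjusted p = 0.0198), and the call was lost without siControl replicate 2 (adjusted p = 0.127), siSFPQ replicate 1 (adjusted p = 0.0815) or siSFPQ replicate 3 (adjusted p = 0.0572).

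TNFRSF13C, the B cell receptor for the survival factor TNFSF13B, went the other way. It had 338, 260 and 312 counts in siControl and 64, 61 and 54 counts in siSFPQ. The normalized mean went from 304 ± 40.1 to 59.7 ± 6.37, a 5.09-fold decrease (log2 fold change -2.35, SE 0.146, adjusted p = 2.35e-15). It was the largest change with ample counts in the downward direction, and its 3 siSFPQ libraries lay close together. The 4 TRAF-binding receptors that did not pass were all below 1 CPM. CD27 had 2, 3 and 4 counts in siControl and 13, 11 and 4 counts in siSFPQ (log2 fold change 1.60, SE 0.769, adjusted p = 0.0933), with the lowest siSFPQ library inside the siControl range. Of the exon length of CD27, 44.7% is shared with genes on either strand. TNFRSF1B, the second receptor of TNF, had 10, 13 and 4 counts in siControl and 15, 15 and 21 counts in siSFPQ (log2 fold change 0.90, SE 0.502, adjusted p = 0.151), without overlap. TNFRSF4 and TNFRSF18 had no more than 17 counts in any library. Not tested were TNFRSF11A, with 0 counts in siControl and 3, 1 and 1 counts in siSFPQ, and TNFRSF13B and TNFRSF17, with at most 1 count in any library.

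Of the 7 tested death domain receptors, 3 rose (42.86%, against 22.4% of all tested genes) and 4 did not pass, and the median log2 fold change was 0.11. FAS, the receptor that triggers apoptosis upon binding FASLG, had 1262, 1279 and 1462 counts in siControl and 2320, 2430 and 2396 counts in siSFPQ. Normalized counts were 1336 ± 112 and 2378 ± 14.7, a log2 fold change of 0.83 (SE 0.0539, adjusted p = 7.14e-15). FAS was thus the death domain receptor with the largest called change. Of its exon length, 7.04% is shared with genes on either strand, ACTA2 and STAMBPL1 among them. TNFRSF10B, a receptor of the apoptosis ligand TNFSF10, had 4981, 4968 and 5062 counts in siControl and 5509, 5824 and 5970 counts in siSFPQ (log2 fold change 0.20, SE 0.0382, adjusted p = 4.78e-05). TNFRSF1A, the main receptor of TNF, had 4989, 5212 and 5023 counts in siControl and 5308, 5356 and 5788 counts in siSFPQ (log2 fold change 0.11, SE 0.0403, adjusted p = 0.0293). The rise of TNFRSF1A was not called without siControl replicate 1 (adjusted p = 0.0819), siControl replicate 3 (adjusted p = 0.0612) or siSFPQ replicate 3 (adjusted p = 0.115).

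Death domain receptors with overlapping conditions included abundant ones. TNFRSF21 had 1629, 1652 and 1610 counts in siControl and 1616, 1550 and 1748 counts in siSFPQ, with a log2 fold change of 0.00 and a 95% interval from -0.10 to 0.11. NGFR, a neurotrophin receptor, had 544, 411 and 411 counts in siControl and 399, 503 and 488 counts in siSFPQ, with an interval from -0.18 to 0.22. TNFRSF25, the receptor of TNFSF15, had 256, 334 and 306 counts in siControl and 302, 314 and 328 counts in siSFPQ, with an interval from -0.14 to 0.28. Over these 3 genes the intervals reached 0.28 upward and 0.18 downward on the log2 scale. Each interval is for a single gene, was built from the standard error by a normal approximation, and does not exclude larger changes. EDAR had at most 14 counts in any library and did not pass, and TNFRSF10A, the second signalling receptor of TNFSF10, had a single count in 1 siSFPQ library and was not tested.

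Of the 4 decoy receptors, 3 were tested, with 1 that rose and 1 that fell (33.33% each) and 1 that did not pass, and 1 had no counts. Over all tested genes 22.4% rose and 22.1% fell, and 3 genes are too few to set against these shares. TNFRSF11B, osteoprotegerin, had 1467, 1408 and 1429 counts in siControl and 954, 1106 and 992 counts in siSFPQ. Its normalized mean went from 1437 ± 31.1 to 1015 ± 58.4 (log2 fold change -0.50, SE 0.0586, adjusted p = 8.64e-09), with all siSFPQ libraries lower. TNFRSF10C, a decoy for TNFSF10 anchored in the membrane by a lipid, had 81, 63 and 76 counts in siControl and 122, 113 and 118 counts in siSFPQ (log2 fold change 0.68, SE 0.171, adjusted p = 0.00139). A share of 33% of its exon length is common to other genes on the same strand. TNFRSF10D had at most 6 counts in any library and did not pass. TNFRSF6B, a soluble decoy, had 0 counts everywhere, and its whole exon length is shared with another gene on the same strand, so that its reads could not be assigned to it.

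To compare the genes with each other, counts were converted to TPM, which scales them to the summed exon length of each gene and to the library. The superfamilies were dominated by receptors: the 28 receptors summed to 763 ± 8.70 TPM in siControl and 838 ± 18.7 TPM in siSFPQ, and the 19 ligands to 115 ± 2.86 TPM and 173 ± 7.45 TPM. Within the receptors, TRAF-binding receptors summed to 461 ± 11.5 TPM in siControl and 528 ± 14.0 TPM in siSFPQ, death domain receptors to 249 ± 3.75 TPM and 269 ± 8.71 TPM, and decoy receptors to 53.4 ± 1.54 TPM and 40.8 ± 2.29 TPM. The decoy sum followed TNFRSF11B, which made up most of it. TNFRSF12A had the highest level per length, at 324 ± 10.6 TPM in siControl and 345 ± 10.5 TPM in siSFPQ. TNFRSF1A followed in siControl at 104 ± 3.03 TPM, then TNFRSF10B at 86.2 ± 0.0836 TPM, CD70 at 73.1 ± 3.15 TPM and TNFRSF11B at 49.3 ± 1.18 TPM. For each of these genes the lowest siControl library lay above the highest siControl library of the next gene. EDA2R at 45.4 ± 3.32 TPM, LTBR at 41.2 ± 1.87 TPM and TNFRSF21 at 39.1 ± 0.845 TPM formed a run in which neighbours overlapped.

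Several members changed place in this order. CD70 went from rank 4 to rank 2 at 120 ± 6.15 TPM in siSFPQ, and TNFRSF11B went from rank 5 to rank 10 at 34.3 ± 2.51 TPM. TNFSF15 went from 1.43 ± 0.202 TPM at rank 20 to 6.80 ± 0.392 TPM at rank 15, and TNFRSF9 from 5.74 ± 0.210 TPM at rank 15 to 14.6 ± 0.952 TPM at rank 11. TNFRSF13C made the longest fall among these, from 6.67 ± 0.865 TPM at rank 12 to 1.29 ± 0.126 TPM at rank 23. In all, 21 members had at least 1 TPM in siControl and 24 in siSFPQ. The order depends on the length used, and CD70 was at rank 3 in both conditions with the length of the Ensembl canonical transcript, an alternative chosen after the data were seen. With that length FAS was at 18.5 TPM and rank 10 in siControl, whereas its exons summed over all transcripts, 29313 bases against 3696 bases, put it at 3.93 TPM and rank 17. CD40 was then at 57.5 TPM instead of 28.9 TPM and LTBR at 70.7 TPM instead of 41.2 TPM. TNFRSF12A and TNFRSF1A kept ranks 1 and 2 in siControl with both lengths.

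**Figure D3:**
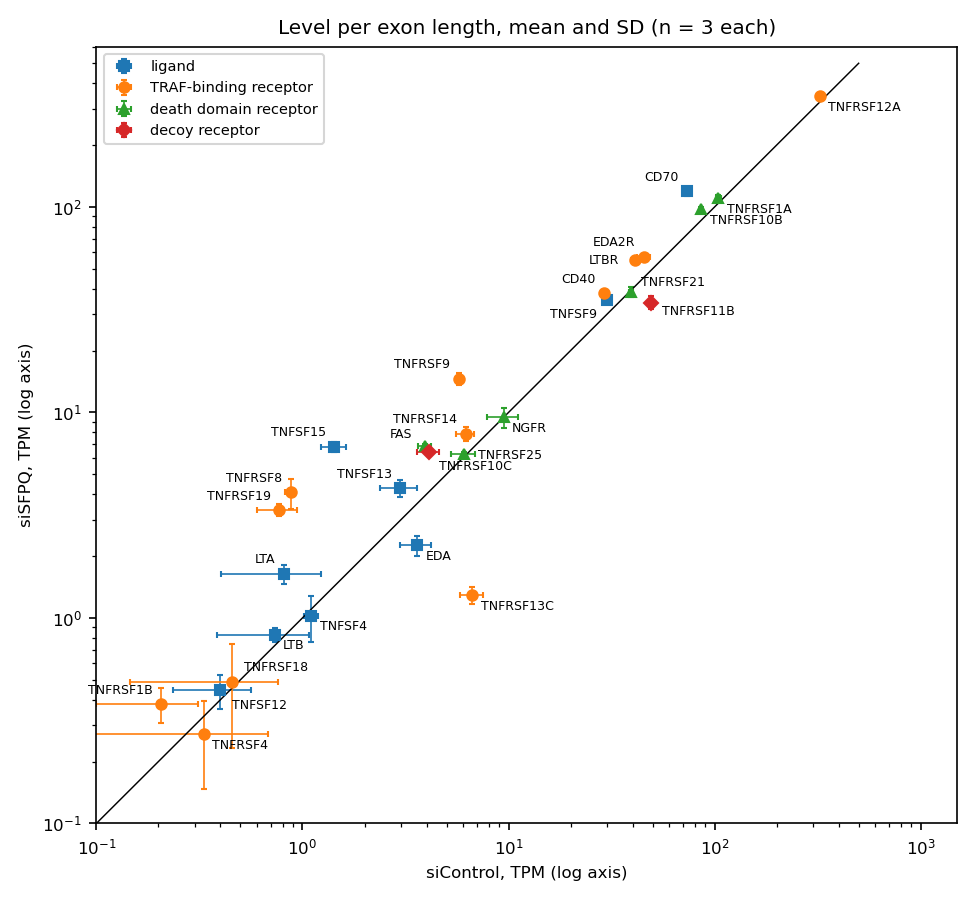
Level of members in siControl (x axis) and siSFPQ (y axis) in TPM from summed exon length, on log axes, for members at or above 0.2 TPM in both conditions; symbols mark the role, bars are the SD (n = 3) and the line marks equal levels. TNFSF15, TNFRSF8 and TNFRSF19 lie farthest above the line, TNFRSF13C lies farthest below it, and TNFRSF12A is at the top end in both conditions.

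Ligands and receptors were next set side by side in 34 known pairs of 18 ligands and 25 receptors. In 15 pairs the receptor had a mean of at least 1 CPM and the ligand did not, in 6 pairs the ligand alone reached it, in 10 pairs neither did, and in 3 pairs both did: TNFSF15 with TNFRSF25, TNFSF9 with TNFRSF9, and EDA with EDA2R. In the first, the ligand rose (log2 fold change 2.28) and the receptor had a log2 fold change of 0.07 (adjusted p = 0.641). TNFSF9 and TNFRSF9 both rose, by 0.26 and 1.37 on the log2 scale. EDA fell (log2 fold change -0.64) while EDA2R rose (0.35). Both partners also rose in 3 pairs with a ligand under 1 CPM, TNFSF8 with TNFRSF8, LTA with TNFRSF1A and LTA with TNFRSF14. The call of LTA was lost in 4 of 13 alternatives and that of TNFRSF1A in 3 of 13. CD70 is a case with the ligand as the abundant partner, at 73.1 TPM in siControl and 120 TPM in siSFPQ beside 0.195 TPM and 0.600 TPM of its receptor CD27. FAS, TNFRSF10B and CD40 were expressed at 3.93, 86.2 and 28.9 TPM in siControl, while their ligands FASLG, TNFSF10 and CD40LG stayed below 0.1 TPM in both conditions. In the pair counts above, TNFRSF6B stood as a receptor under 1 CPM with TNFSF14, FASLG and TNFSF15. Because its reads could not be assigned to it, its level in these pairs is not known.

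In the genome, 24 of the 47 members lie in 9 groups of neighbours less than 200000 bases apart, and chromosome 1 holds 10 members. Neighbours differed in their calls in several of these groups. Beside the pair on chromosome 9 where both genes rose, TNFRSF1A and LTBR on chromosome 12 rose and CD27 in the same group did not pass. On chromosome 19, TNFSF9 and CD70 rose and TNFSF14 fell. On chromosome 1, TNFRSF8 (12063303 to 12144207) rose, whereas the adjacent TNFRSF1B (12166991 to 12209228) did not pass. CD27, TNFSF14 and TNFRSF1B had few reads, with means of 0.137, 0.0502 and 0.286 CPM over all libraries. The log2 fold changes of CD27 (1.60) and TNFRSF1B (0.90) were also upward, and that of TNFSF14 (-3.29) was not. At such levels a different call does not show a different change. Gene spans ran from 2271 to 105735 bases for the 18 members that rose, from 4775 to 423406 bases for the 4 that fell and from 1998 to 94902 bases for the 15 that did not pass.

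Genes through which the receptors signal, genes of ligand and receptor shedding and TNF-induced transcripts were followed in 6 lists. The lists held 56 genes, of which 51 were tested. In these lists 25 genes rose (49.02%), 12 fell (23.53%) and 14 did not pass, and the median log2 fold change was 0.17. The share that fell was near the 22.1% of all tested genes. Of the 51 genes, 47 had a mean of at least 1 CPM, a level at which 30.2% of all genes rose and 34.4% fell. Of 10 adaptors and TRAFs, 5 rose and 1 fell (2 without siControl replicate 3). TRAF1, an adaptor that binds TNFRSF8, TNFRSF9 and other receptors and is induced by NF-kB, had 25, 8 and 17 counts in siControl and 75, 77 and 93 counts in siSFPQ (log2 fold change 2.28, SE 0.288, adjusted p = 4.13e-08). TRAF4 rose by 0.44 and TRAF3, which restrains alternative NF-kB signalling, fell by 0.29 on the log2 scale. TRAF1 was low in both conditions compared with the other adaptors that changed, but its libraries were well apart.

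In the death and survival branch, 5 of 8 tested genes rose (62.5%, against 22.4% of all tested genes) and 2 fell (25%, against 22.1%). All 8 had a mean of at least 1 CPM, a level at which 30.2% of all genes rose and 34.4% fell. BIRC3, an inhibitor of apoptosis that binds TRAF adaptors, had 92, 163 and 100 counts in siControl and 519, 485 and 497 counts in siSFPQ (log2 fold change 2.08, SE 0.135, adjusted p = 7.59e-15). MLKL, the pore-forming effector of necroptosis, had 139, 151 and 138 counts in siControl and 470, 454 and 561 counts in siSFPQ (log2 fold change 1.79, SE 0.110, adjusted p = 1.91e-15). BIRC3 and MLKL belong to a signature that the study picked from these libraries, so their rise is not independent evidence. BID, which links death receptors to mitochondria, fell by 0.96, and XIAP, another inhibitor of apoptosis, fell by 0.45 on the log2 scale. RIPK3, the kinase that activates MLKL, had a single count in 1 library.

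In the canonical NF-kB branch 8 of 16 genes rose (50%, against 22.4% of all tested genes) and 4 fell (25%, against 22.1%). Without siSFPQ replicate 1, or with scaling by library size alone, 2 genes of this branch fell. The largest rises were those of the inhibitor TNFAIP3 (log2 fold change 0.69, SE 0.0880) and the subunit NFKB1 (0.30, SE 0.0476). TAB3, an adaptor of the kinase TAK1, fell by 0.42 and IKBKG, the regulatory subunit of the IKK complex, fell by 0.28 on the log2 scale, the latter with a call lost in 4 alternatives. In the alternative branch, NFKB2, which encodes its precursor subunit, had 2367, 2568 and 2500 counts in siControl and 4278, 4182 and 4467 counts in siSFPQ (log2 fold change 0.79, SE 0.0443, adjusted p = 1.31e-16). MAP3K14, its upstream kinase, rose by 0.66, RELB, the partner subunit of NFKB2, rose by 0.57, and CHUK fell by 0.17 on the log2 scale.

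Of the 7 genes of ligand and receptor shedding, 3 rose (42.86%) and 3 fell (42.86%), and 6 of them had a mean of at least 1 CPM, where the shares over all genes were 30.2% and 34.4%. RHBDF2, which brings the TNF-cleaving protease ADAM17 to the cell surface, had 1269, 1174 and 1212 counts in siControl and 3040, 2945 and 3022 counts in siSFPQ (log2 fold change 1.30, SE 0.0503, adjusted p = 6.33e-21). The proteases themselves were lower, with ADAM10 down by a log2 fold change of -0.36 and ADAM17 by -0.19, and the intramembrane protease SPPL2B rose by 0.30. Of 10 transcripts that TNF induces in many cells, 6 were tested, 1 rose and 1 fell (16.67% each). Over all tested genes 22.4% rose and 22.1% fell, and 6 genes are too few to set against these shares. CXCL8, a neutrophil chemokine, had 19, 10 and 35 counts in siControl and 103, 71 and 111 counts in siSFPQ (log2 fold change 2.15, SE 0.288, adjusted p = 1.36e-07). CXCL8 is also among the genes the study followed by RT-PCR after knock-down, under the name IL8. The study reports that this rise did not depend on RNaseH1, an enzyme that removes RNA from RNA:DNA hybrids. It sets the rise beside a reported role of SFPQ as a repressor of the gene. An antagonist of the innate immune protein STING left the IL8 transcript unaffected there. Whether TNF signalling had a part in the rise was not tested. CCL2, a monocyte chemokine, fell by 0.41 on the log2 scale, a call that was lost without siControl replicate 3 (adjusted p = 0.0610), and CCL20, IL6, ICAM1 and CSF2 did not pass.

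**Figure D4:**
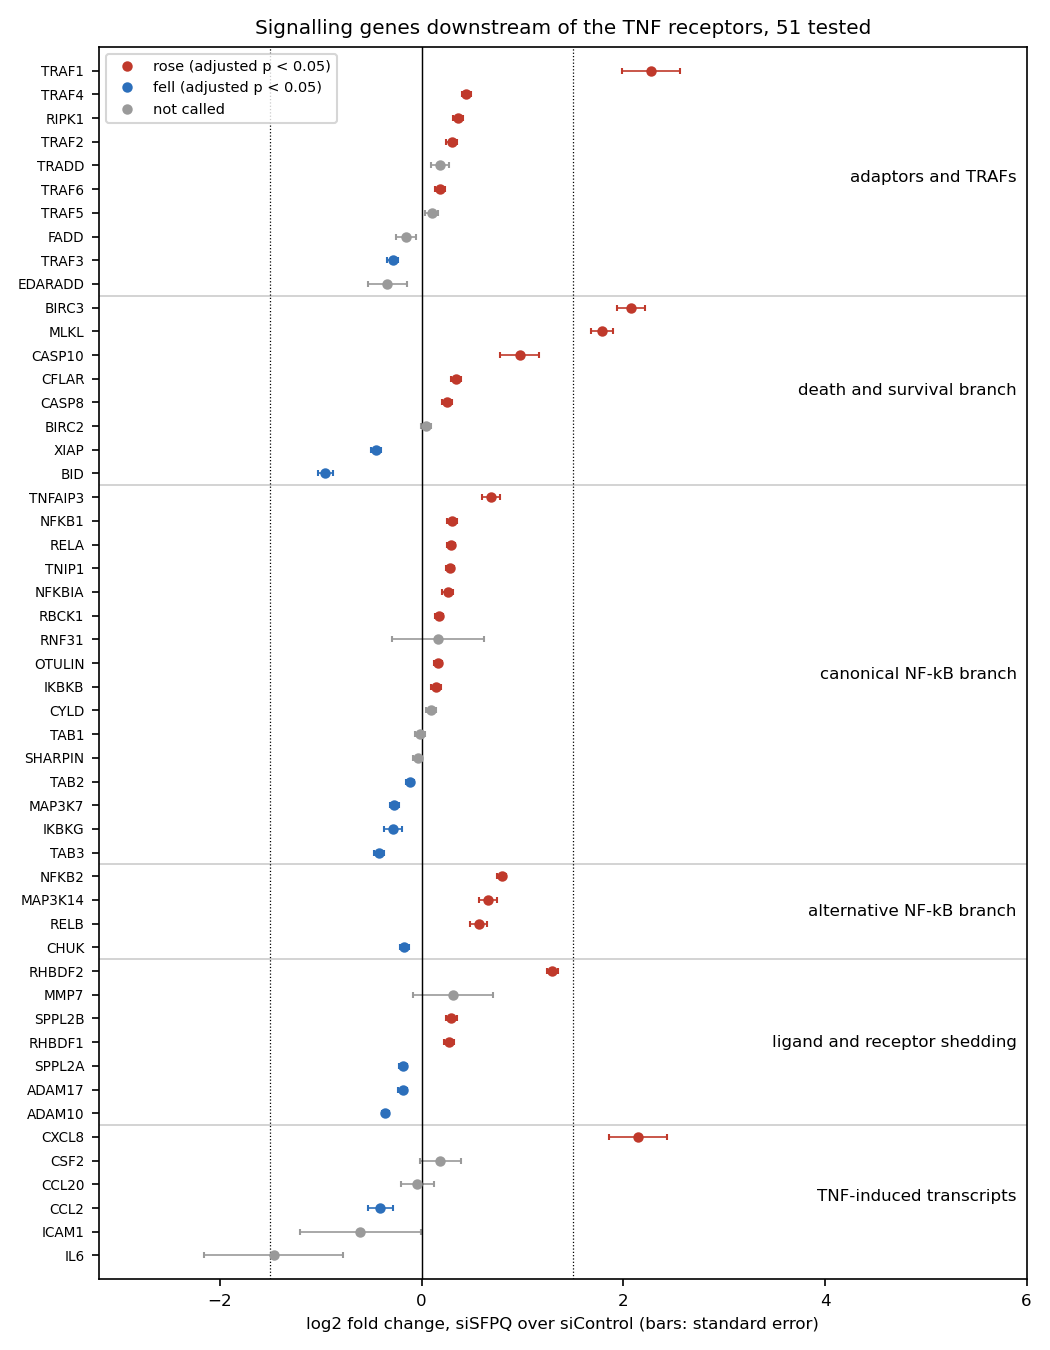
Log2 fold change (x axis, siSFPQ over siControl, bars are the standard error) of the 51 tested genes in 6 lists along the y axis. The lists cover receptor signalling, shedding and TNF-induced transcripts. Dotted lines mark 1.5 and -1.5. Red points rose, blue points fell and grey points did not pass the adjusted p of 0.05. TRAF1, BIRC3, MLKL and CXCL8 lie beyond the upper line, and no called gene lies beyond the lower line.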

How the data were processed

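RNA-seq libraries of U-2 OS cells, 3 siControl and 3 siSFPQ, were grouped by their labels; nothing in the labels ties equal replicate numbers to one another. The authors checked reads with FastQC, aligned them to GRCh38 (Ensembl) with STAR 2.7.9a, and the raw counts per Ensembl gene are as deposited. Libraries were stranded, whereas trimming and the strand option used for counting are not given in the sources used here. With this option unknown, reads of overlapping genes on opposite strands may be shared.

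Genes with at least 10 counts in total entered the quasi-likelihood F test of edgeR 4.0.16 under R 4.3.3 (TMM scaling, two-sided, no covariates, Benjamini-Hochberg over 29022 genes). "Rose" and "fell" denote an adjusted p under 0.05. Standard errors come from the log2 fold change and the F statistic. Normalized counts are counts divided by effective library size, scaled to the geometric mean. TPM used exon lengths of GENCODE release 44, which holds 99.67% of the identifiers. Replicates are described as biological, and between replicates counts differed beyond sampling noise (chi-square over its degrees of freedom 3.77 to 5.49, against 82.0 to 102 between conditions). Alternatives were other filters and scalings, DESeq2 1.42.0, protein-coding genes only, a replicate block, another fold threshold, each library left out, and canonical transcript length.

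Members, lists, pairs, motifs and tests were chosen with earlier results of these data known. Given in full are called members with a mean of at least 1 CPM or a log2 fold change beyond 1.5, and, of each pathway list, genes beyond 1.5 and the 2 largest rises and falls. Other members, LTA, RELB and RIPK3 are named so that each count is accounted for. Promoter windows are from RefSeq (GRCh38.p14). Protein sequences were not analysed here, and 1 marker gene is not reported here.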

Additional observations from a re-analysis of the deposited data

How the results depend on the processing

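Of 556 values of 43 genes under 13 alternative settings, 532 kept their direction and their side of the threshold, 24 kept only the direction and 0 reversed. Of 314 counts, 292 stayed within 1.5 times. The number of members lower beyond a log2 fold change of 1.5 went from 2 to 1, and of fallen ligands from 2 to 1, with filterByExpr, without a filter beyond 1 count, with library size alone and with DESeq2. TNFSF14 was the gene concerned, which was not tested after filterByExpr and after 1 of the omissions. With each library left out in turn, both counts ranged from 1 to 2, fallen adaptors and TRAFs from 1 to 2 (2 without siControl replicate 3), fallen canonical NF-kB genes from 2 to 4 (2 without siSFPQ replicate 1) and fallen TNF-induced transcripts from 0 to 1 (0 without siControl replicate 3). Fallen canonical NF-kB genes also numbered 2 with library size alone, a scaling that moved the median of all genes by 0.06 on the log2 scale. A log2 threshold of 1 in place of 1.5 gave 6 members higher and 2 lower.

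With the replicate number as a block, 18 members rose and 3 fell, 1 ligand fell and 1 member was lower beyond the fold threshold. The deviations of same-numbered libraries had correlations of -0.03, 0.06 and 0.04, and those of differently numbered libraries ran from -0.07 to 0.03. Correlations this small cannot decide whether the numbers pair the samples.

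The depth limits what can be said of members with no more than 30 counts in any library, where counting error alone is large.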
